A study of Mus musculus with 10 samples.

Results

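The genes that set how much pyruvate enters and passes the pyruvate dehydrogenase complex were followed in the tibialis anterior, a fast muscle of the lower leg, of C57BL/6 mice aged 6 months after a 3 h fast. Members were taken by gene symbol: the kinase genes Pdk1, Pdk2, Pdk3 and Pdk4, the phosphatase genes Pdp1 and Pdp2, the genes Pdha1 and Pdhb for the subunits of the E1 enzyme, and Mpc1 and Mpc2 for the mitochondrial pyruvate carrier. All 10 had a single row each among the 13492 genes of the deposited table. The libraries were 5 labelled Lrtm1 knockout (replicates 1 to 5) and 5 labelled Lrtm1 wild type (replicates 1, 3, 4, 5 and 6), which the design text calls floxed controls. Litter 108 gave knockouts 1 and 2 and control 1, litter 110 knockout 3 and controls 3 and 4, and litter 112 knockouts 4 and 5 and controls 5 and 6. The sources used here do not give how, or in which cells, the floxed allele was recombined, and the design text states 4 mice per group where the labels list 5.

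Pyruvate made by glycolysis crosses the inner mitochondrial membrane through a carrier built of MPC1 and MPC2. The pyruvate dehydrogenase complex then turns it into acetyl-CoA, a step that commits carbohydrate to oxidation. Pyruvate dehydrogenase kinases switch the complex off by phosphorylating serines of its E1 alpha subunit, and pyruvate dehydrogenase phosphatases remove those phosphates and switch it on. In skeletal muscle PDK4 is known for its induction by fasting and fat use, and insulin is known to lower its transcript.

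Values are log2 CPM (counts scaled to a common library total) as the authors deposited them, after an adjustment that removed litter and 3 further terms with genotype kept. The libraries had medians between 3.35 and 3.36 log2 CPM, and the depth behind them is unknown. Lrtm1 itself was 6.12 log2 CPM on average in the libraries labelled knockout and 5.68 in the controls (log2 difference 0.44, SE 0.071, adjusted p = 0.0344), so the targeted gene was not lower and directions below are drawn between libraries as labelled. A gene-level value may include reads outside the deleted part, which is not given, and then checks nothing. Myofibre genes dominated the libraries, with Myh4, the myosin of the fastest fibres, at a mean of 32931 CPM. In bulk muscle, fewer cells of a type and less RNA per cell cannot be told apart. Differences were tested with limma over 12223 genes with a mean of at least 0 log2 CPM, and p-values were adjusted over all of them. Because the adjustment took 3 of the 6 residual degrees of freedom, the 3 removed terms were counted in the fit; the fit with litter and genotype only, which counts 6, is given beside it as the fit without the removed terms. That fit counts degrees of freedom that the values no longer hold, so its p-values are too small, and genes that passed there alone are named but not counted as changed.

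None of the 9 members tested passed the threshold (adjusted p under 0.05) once the removed terms were counted, where 0.335% of all genes did. Pdk3 lay below the expression minimum and was not among the 9. At an unadjusted p under 0.05 there were 2, Pdp1 and Mpc2, against 1232 of the 12223 genes. Without the removed terms Pdp1 passed, 1 of 9, where 8.62% of all genes did. The 5 knockout libraries lay entirely on the same side of the 5 controls in 3 of the 9, Pdp1 and Mpc2 below and Pdp2 above, where 16.2% of all genes did. Of the 9 differences 5 were above 0 and 4 below, with a median of 0.013 on the log2 scale against -0.0041 over all genes tested. The median size of a difference was 0.0643 in the members and 0.0785 in all genes.

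Levels were compared between genes per kilobase of each gene's longest protein-coding transcript. Mpc1 led with a mean of 202 CPM per kilobase over the 10 libraries, followed by Pdk2 at 200.5, Pdha1 at 189, Pdk4 at 149, Mpc2 at 147 and Pdhb at 145 CPM per kilobase. Neighbours among these 6 overlapped in range, and Mpc1 exceeded Pdk2 in only 5 of 10 libraries. Pdp1 at 21.4, Pdk1 at 13.1, Pdp2 at 0.825 and Pdk3 at 0.268 CPM per kilobase followed, and each of these steps held in 10 of 10 libraries. The order was the same with the median length of the coding transcripts, with Pdp1 then at 34.8 CPM per kilobase.

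**Figure D1:**
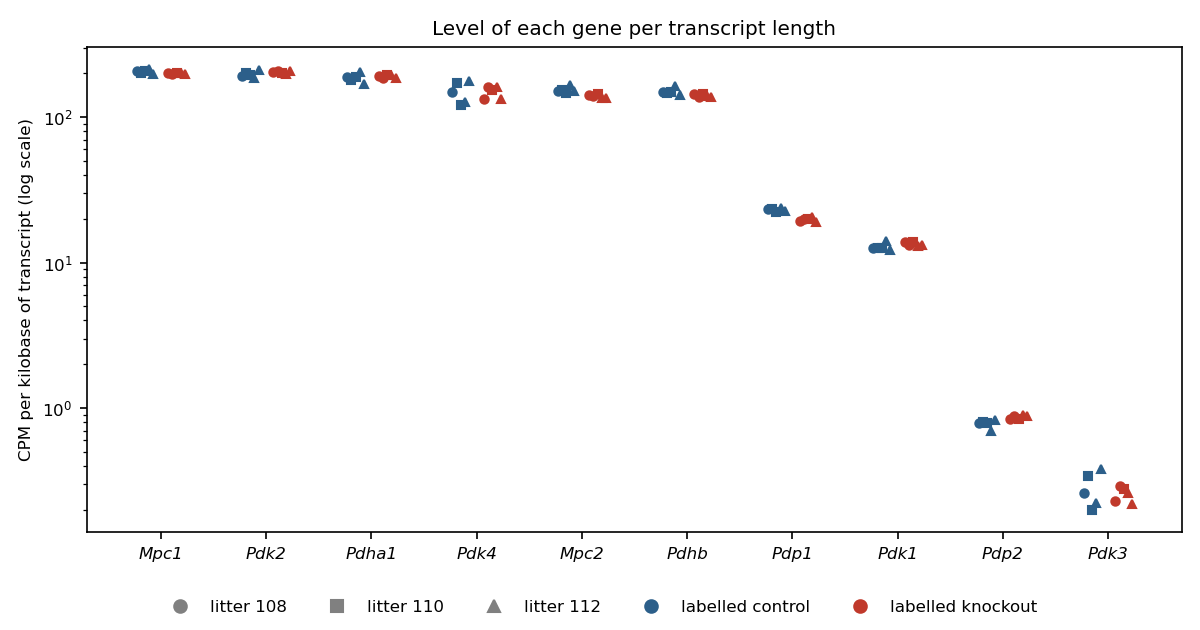
Level of each gene in CPM per kilobase of transcript (log scale) in every library, controls in blue and knockouts in red, with litter as the symbol. Mpc1, Pdk2, Pdha1, Pdk4, Mpc2 and Pdhb share a range between 121 and 214, Pdp1 and Pdk1 lie about a decade lower, and Pdp2 and Pdk3 lie below 1.

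The kinase transcripts were mostly Pdk2 and Pdk4. Per kilobase, Pdk2 made up 55.7% ± 2.46 (SD, n = 5) of the 4 kinase transcripts in the knockouts and 55.1% ± 2.96 (SD, n = 5) in the controls, and Pdk4 40.5% ± 2.62 and 41.2% ± 3.35 (SD, n = 5 each). Pdk1, an isoform induced by hypoxia-inducible factor, made up 3.66% ± 0.207 and 3.61% ± 0.499 (SD, n = 5 each). These shares differed between the groups by less than their SD.

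Pdk4 (ENSMUSG00000019577) is on chromosome 6, from 5483351 to 5496309 on the minus strand (GENCODE M21, GRCm38). It read 8.87, 9.14, 9.07, 9.13 and 8.85 log2 CPM in knockouts 1 to 5, and 9.02, 9.22, 8.72, 8.79 and 9.26 log2 CPM in controls 1, 3, 4, 5 and 6. The controls held both the highest libraries (controls 6 and 3) and the lowest (controls 4 and 5), and the knockouts lay between them. In CPM the means were 518 ± 51.0 (SD, n = 5) in the knockouts and 518 ± 86.7 (SD, n = 5) in the controls. Their log2 difference was 0.013 with a 95% interval from -0.26 to 0.29, or 0.834-fold to 1.22-fold, and an adjusted p of 0.985. Its sign was not settled. With the removed terms counted, leaving out single libraries moved the difference between -0.32 (without knockout 2) and 0.22 (without control 3). The removed terms are refitted there on the remaining libraries, which itself moves the estimate. In the fit without the removed terms the difference ran from -0.059 to 0.10 when a library was left out. Within litters it was -0.011 for litter 108, 0.11 for litter 110 and -0.034 for litter 112.

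The 250 bases before the start of Pdk4 are shown because this gene is the textbook target of FoxO factors and nuclear receptors among the kinases, and those of Pdp2 and Mpc2 because their groups did not overlap. Sequences are from RefSeq on GRCm38.p6, which held 12 windows for 9 of the 10 genes, with Pdp1 the missing entry. They run 5′ to 3′ on the gene's strand, chr6:5496279-5496528 (minus) for Pdk4, chr8:104591222-104591471 (plus) for Pdp2 and chr1:165461010-165461259 (plus) for Mpc2. Capitals mark matches, on either strand, to any of 6 short motifs: the nuclear receptor half-site AGGTCA, the FoxO core GTAAACA, the GC box GGGCGG, the CCAAT box (CCAAT), the TATA box (TATAAA) and the E-box CACGTG.
Pdk4: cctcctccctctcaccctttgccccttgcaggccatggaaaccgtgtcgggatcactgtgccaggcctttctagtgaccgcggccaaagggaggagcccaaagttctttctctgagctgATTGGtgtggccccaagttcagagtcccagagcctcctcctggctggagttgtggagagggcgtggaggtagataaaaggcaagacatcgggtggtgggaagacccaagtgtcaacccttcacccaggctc
Pdp2: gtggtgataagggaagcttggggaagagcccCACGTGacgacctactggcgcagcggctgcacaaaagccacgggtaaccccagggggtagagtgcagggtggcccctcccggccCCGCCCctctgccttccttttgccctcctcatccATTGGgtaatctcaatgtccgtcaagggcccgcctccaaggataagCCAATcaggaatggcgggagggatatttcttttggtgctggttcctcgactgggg
Mpc2: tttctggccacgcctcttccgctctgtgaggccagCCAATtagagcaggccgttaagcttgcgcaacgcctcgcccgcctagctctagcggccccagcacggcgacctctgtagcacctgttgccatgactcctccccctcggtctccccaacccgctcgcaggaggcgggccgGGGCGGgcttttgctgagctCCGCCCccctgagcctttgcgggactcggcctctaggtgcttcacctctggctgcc
The Pdk4 window held a single CCAAT match, on the opposite strand 131 bases before the start. The Pdp2 window held the E-box 219 bases before the start, a GC box and 2 CCAAT matches, and the Mpc2 window 2 GC boxes and a CCAAT match. No motif overlapped another in these 3 windows. The starts used here are those of RefSeq, which differ from the GENCODE positions given for the genes. By GENCODE, Mpc2 begins at 165460637, so its whole window lies inside the gene and its matches are not upstream of that start. The windows of Pdk4 and Pdp2 reach a little into their GENCODE genes. The same letters were found in 33.8% of all 32851 RefSeq windows of this length for CCAAT, 32.7% for the GC box, 14.0% for the half-site, 12.4% for TATAAA, 6.02% for the E-box and 3.17% for the FoxO core. The FoxO core was in none of the members' 12 windows and the half-site in 1, at Mpc1, which says only that these letters are absent from the other windows. Among the members the E-box was in the windows of Pdp2 and Pdk2.

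Pdk2 (ENSMUSG00000038967; chromosome 11, 95026258 to 95041354, minus strand), the kinase isoform found in most tissues, read 8.84, 8.86, 8.83, 8.80 and 8.87 log2 CPM in knockouts 1 to 5 and 8.76, 8.81, 8.77, 8.71 and 8.88 in controls 1, 3, 4, 5 and 6. Controls 1, 4 and 5 lay below all knockouts and control 6 above them. The groups differed by 0.053 on the log2 scale (95% interval -0.076 to 0.18, adjusted p = 0.814). An annotated antisense transcript overlaps Pdk2, and the sources used here do not give whether counting used the strand.

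Pdk1 (ENSMUSG00000006494; chromosome 2, 71873224 to 71903858, plus strand) ran from 6.07 to 6.17 log2 CPM in the knockouts. Controls 1, 3, 4 and 6 lay below all knockouts, from 5.98 to 6.03 log2 CPM, and control 5 at 6.20 above them. The groups differed by 0.064 (95% interval -0.078 to 0.21, adjusted p = 0.797). Without control 5 it was 0.12 with an adjusted p of 0.549, and in the fit without the removed terms 0.11 with an adjusted p of 0.0249.

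Pdk3 (ENSMUSG00000035232; X chromosome, 93764607 to 93832201, minus strand), the isoform known for high activity against the complex, was near the floor at 0.54 ± 0.0666 CPM (SD, n = 5) in the knockouts and 0.595 ± 0.164 CPM (SD, n = 5) in the controls. In the fit without the expression minimum its log2 difference was -0.10 with a wide 95% interval from -0.83 to 0.62. Like Pdk4, it was highest in controls 6 and 3 and lowest in control 4.

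Of the phosphatases, Pdp1 was lower in the libraries labelled knockout and Pdp2 higher, on the measured values. Pdp1 (ENSMUSG00000049225; chromosome 4, 11958184 to 11966452, minus strand) encodes the calcium-sensitive phosphatase that is the main isoform of muscle. It read 6.35, 6.38, 6.40, 6.43 and 6.32 log2 CPM in knockouts 1 to 5 and 6.62, 6.62, 6.55, 6.63 and 6.57 log2 CPM in controls 1, 3, 4, 5 and 6. Every knockout lay below every control, with a gap of more than the SD of either group between the highest knockout (6.43) and the lowest control (6.55). In CPM the means were 83.0 ± 2.40 (SD, n = 5) and 96.9 ± 2.24 (SD, n = 5).

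The log2 difference of Pdp1 was -0.22 (SE 0.055, 95% interval -0.34 to -0.10), a change of -14.3%. Its size exceeded that of 87.7% of the genes tested. The adjusted p was 0.176 with the removed terms counted (unadjusted p = 0.00195) and 0.00523 without the removed terms (SE 0.031). Litter 108 gave -0.26, litter 110 gave -0.19 and litter 112 gave -0.22. The call in the fit without the removed terms was kept in 9 of 10 fits that left out a library and was lost without control 1 (adjusted p = 0.0511), the only control of litter 108. Relative to the trend of all differences on transcript length it was -0.24 (adjusted p = 0.16, and 0.00492 without the removed terms).

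Pdp2 (ENSMUSG00000048371; chromosome 8, 104591451 to 104599026, plus strand) encodes the phosphatase isoform that does not need calcium. It read 2.25, 2.34, 2.26, 2.36 and 2.33 log2 CPM in knockouts 1 to 5 and 2.18, 2.18, 2.16, 1.98 and 2.24 log2 CPM in controls 1, 3, 4, 5 and 6. All knockouts lay above all controls, by only 0.01 between knockout 1 and control 6, and control 5 was the lowest library. The log2 difference of 0.16 (SE 0.11, 95% interval -0.088 to 0.41) did not pass, with an adjusted p of 0.692 and 0.145 without the removed terms. With the removed terms counted, leaving out a library moved it between 0.086 (without knockout 2) and 0.25 (without knockout 3). Without control 5 it was 0.10. Pdp2 has the longest transcript of the members, in the length class whose median difference was 0.046, and relative to the length trend its difference was 0.12.

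**Figure D2:**
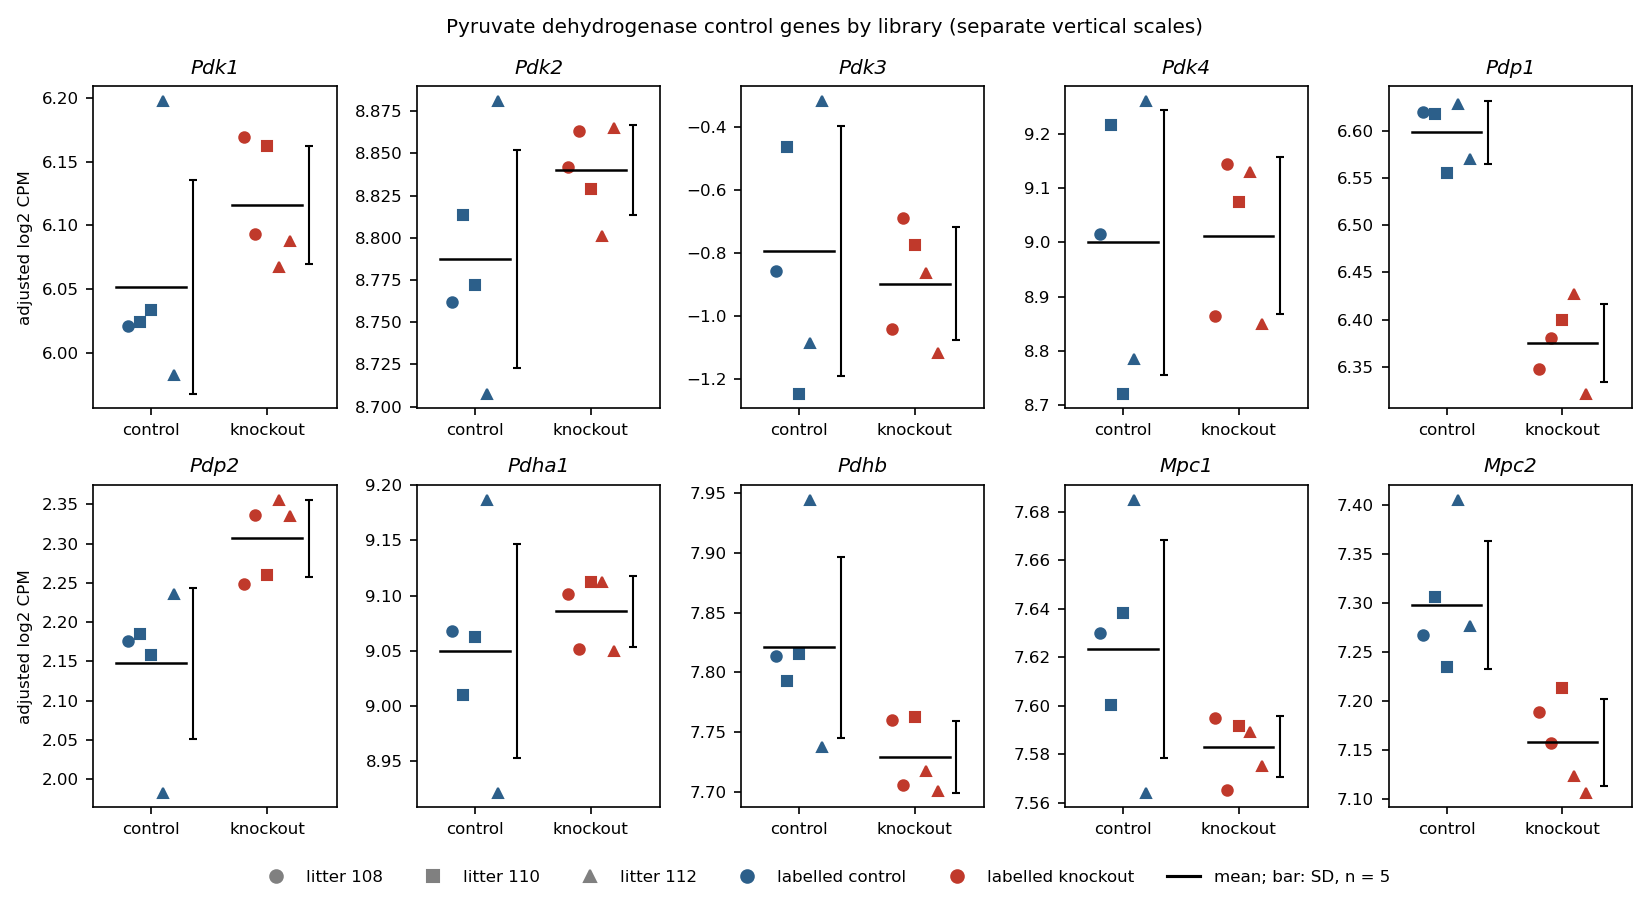
Adjusted log2 CPM of each gene in each library (vertical scales differ between panels), with litter as the symbol, the mean as a line and the SD of 5 libraries as a bar. Pdp1 and Mpc2 of the knockouts (red) lie below all controls (blue) and Pdp2 above them, while in Pdk4 the controls span 8.72 to 9.26 around the knockouts.

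The E1 subunit genes lay on either side of 0. Pdhb (ENSMUSG00000021748; chromosome 14, 8165996 to 8173025, minus strand), which encodes the beta subunit, read 7.76, 7.71, 7.76, 7.72 and 7.70 log2 CPM in knockouts 1 to 5 and 7.81, 7.79, 7.82, 7.94 and 7.74 log2 CPM in controls 1, 3, 4, 5 and 6. Control 6 alone lay within the range of the knockouts. Its difference of -0.092 (95% interval -0.22 to 0.039, adjusted p = 0.662, and 0.188 without the removed terms) passed in neither fit. With the removed terms counted, leaving out a library moved it between -0.16 (without knockout 3) and -0.032 (without knockout 2). It was -0.047 without control 5 and -0.062 relative to the length trend.

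Pdha1 (ENSMUSG00000031299; X chromosome, 160122209 to 160138413, minus strand) encodes the alpha subunit that the kinases phosphorylate. It ran from 9.05 to 9.11 log2 CPM in the knockouts and from 8.92 (control 6) to 9.19 (control 5) in the controls, with controls 1, 3 and 4 from 9.01 to 9.07. The groups differed by 0.036 (95% interval -0.11 to 0.18, adjusted p = 0.902). Its annotated end overlaps Map3k15 on the opposite strand, a far weaker gene here at 1.49 log2 CPM on average. The Y-linked gene Ddx3y read between 5.61 and 5.88 log2 CPM in all 10 libraries, so X-linked Pdha1 and Pdk3 were compared among libraries that all had Y-linked transcripts.

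Both carrier genes had a difference below 0, larger in Mpc2. Mpc2 (ENSMUSG00000026568; chromosome 1, 165460637 to 165481214, plus strand) read 7.19, 7.16, 7.21, 7.12 and 7.11 log2 CPM in knockouts 1 to 5 and 7.27, 7.31, 7.24, 7.41 and 7.28 log2 CPM in controls 1, 3, 4, 5 and 6. The groups did not overlap, with knockout 3 and control 4 the closest pair. The log2 difference was -0.14 (SE 0.058, 95% interval -0.27 to -0.011), a change of -9.25%. An annotated gene that is not in the deposited table, Gm37860, overlaps Mpc2 on the same strand.

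The adjusted p of Mpc2 was 0.45 (unadjusted p = 0.0361) and 0.0575 without the removed terms, so it passed in neither fit. Without the removed terms it passed when control 4 (adjusted p = 0.0458) or control 5 (0.045) was left out. With the removed terms counted, leaving out a library moved the difference between -0.25 (without knockout 3, the only knockout of litter 110) and -0.10 (without knockout 5). Litter 108 gave -0.094, litter 110 gave -0.057 and litter 112 gave -0.23. Relative to the length trend it was -0.10; Mpc1, Mpc2 and Pdhb belong to the shortest of 5 length classes, where the median difference of all genes was -0.043.

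Mpc1 (ENSMUSG00000023861; chromosome 17, 8282904 to 8297661, plus strand) ran from 7.57 to 7.59 log2 CPM in the knockouts and from 7.56 (control 6) to 7.68 (control 5) in the controls. Controls 1, 3, 4 and 5 lay above all knockouts. The groups differed by -0.040 (95% interval -0.16 to 0.076, adjusted p = 0.85) and -0.0011 relative to the length trend. Mpc1 has an annotated pseudogene, with which reads could be shared, and a transcript on its opposite strand.

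**Figure D3:**
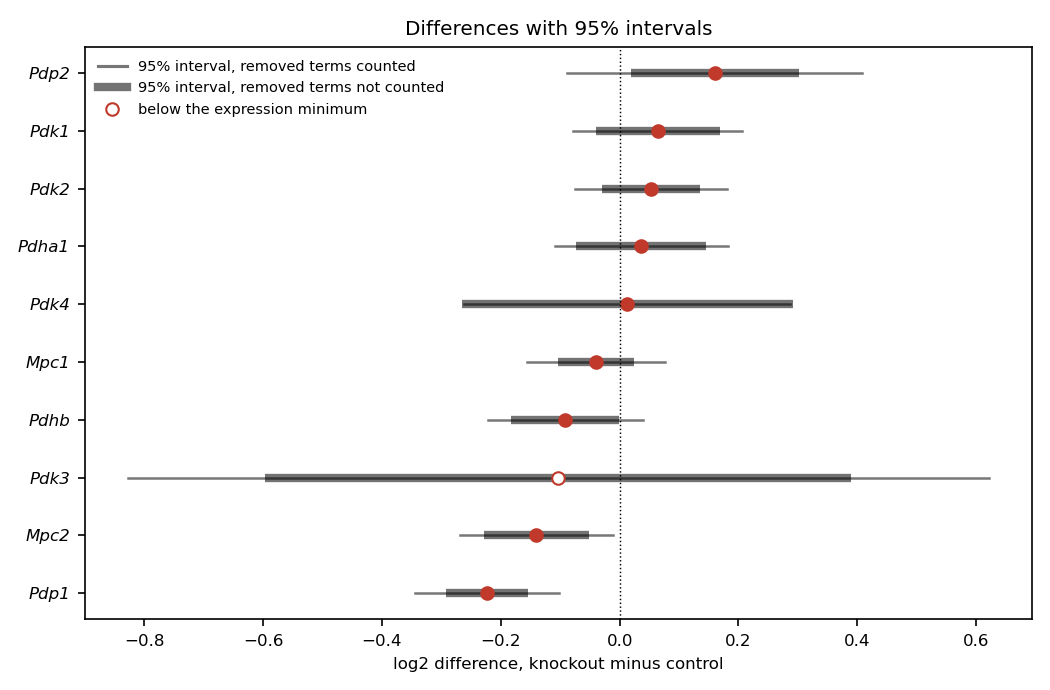
Log2 difference (knockout minus control) of each gene with its 95% interval, thin with the removed terms counted and thick without them; the open point is Pdk3, below the expression minimum. Of the thin intervals, those of Pdp1 (-0.34 to -0.10) and Mpc2 (-0.27 to -0.011) exclude 0 before adjustment for the number of genes.

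Ratios within a library cancel any scaling of that library and are given as a description, without a test, since the pairs were chosen with the members. How often ratios of other gene pairs leave the groups without overlap was not counted. Among single genes tested the share was 16.2%. The log2 ratio of Pdp1 to Pdp2 was 4.07 ± 0.057 (SD, n = 5) in the knockouts and 4.45 ± 0.12 (SD, n = 5) in the controls. The knockouts ran from 3.99 to 4.14 and the controls from 4.33 to 4.65, with no overlap. Per kilobase, Pdp2 made up 4.22% ± 0.161 of the phosphatase transcripts in the knockouts and 3.27% ± 0.249 in the controls (SD, n = 5 each), so Pdp1 remained the bulk in every library.

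The log2 ratio of the kinase transcripts to the phosphatase transcripts, each summed as CPM, read 3.53, 3.64, 3.58, 3.56 and 3.55 in knockouts 1 to 5 and 3.31, 3.43, 3.23, 3.18 and 3.53 in controls 1, 3, 4, 5 and 6. Every knockout was above every control, but knockout 1 (3.533) only just above control 6 (3.527). Pdp1 is most of the phosphatase sum, at 96.9 CPM in the controls where Pdp2 is at 4.44. This ratio is therefore not separate from the difference of Pdp1. The means were 3.57 ± 0.041 and 3.34 ± 0.14 (SD, n = 5 each), a ratio 1.18-fold higher. Relative to Pdp1, Pdk2 was 1.21-fold, Pdk4 1.18-fold and Pdk1 1.22-fold of the controls; these ratios share Pdp1 as denominator, whose own difference of -0.22 makes up most of each. The groups did not overlap for Pdk2 and Pdk1 and overlapped for Pdk4.

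The log2 ratio of Pdha1 to Pdhb had the least scatter. It read 1.34, 1.35, 1.35, 1.40 and 1.35 in knockouts 1 to 5 and 1.25, 1.22, 1.25, 1.24 and 1.18 in controls 1, 3, 4, 5 and 6. The groups did not overlap, at 1.36 ± 0.022 and 1.23 ± 0.029 (SD, n = 5 each). These SDs are too small, since the adjustment removed part of the spread. Neither gene passed the test alone, and the ratio was not tested. The ratio of Mpc1 to Mpc2 was 0.42 ± 0.040 in the knockouts and 0.33 ± 0.054 in the controls (SD, n = 5 each), and the groups overlapped. Pdha1 has a longer transcript than Pdhb, and differences rose with transcript length over all genes. Relative to the length trend the differences were 0.046 for Pdha1 and -0.062 for Pdhb, still on opposite sides of 0.

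**Figure D4:**
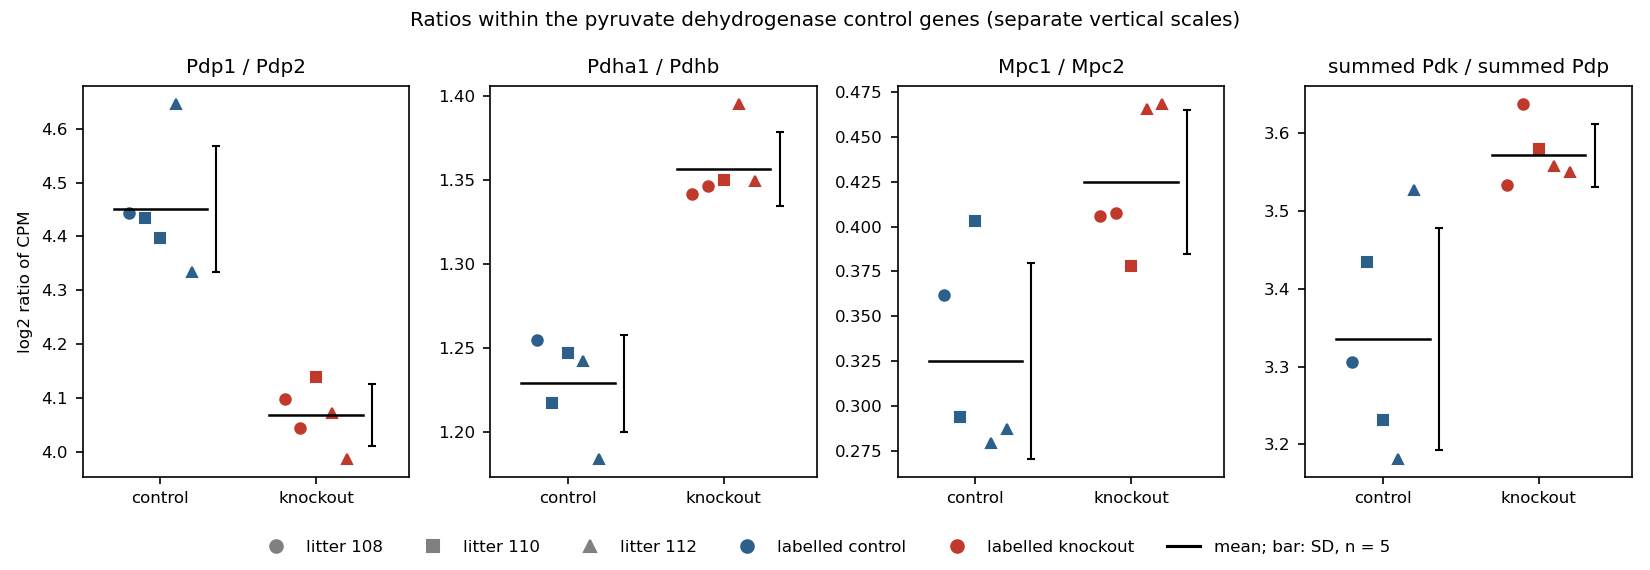
Log2 ratio of CPM between paired genes in each library (vertical scales differ), with litter as the symbol, the mean as a line and the SD of 5 libraries as a bar. Knockouts lie below all controls for Pdp1 to Pdp2, and above all controls for Pdha1 to Pdhb and for summed kinases to summed phosphatases; for Mpc1 to Mpc2 the groups overlap.

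The controls scattered more than the knockouts. The SD was lower in the knockouts in 9 of 10 members, Pdp1 being the exception, and in 73.1% of all genes tested. Controls 5 and 6, from the same litter, were the opposite ends of the controls in 6 of 10 members (Pdk1, Pdk2, Pdp2, Pdha1, Pdhb and Mpc1), against 28.8% of all genes tested. Control 5 was the highest control for Pdk1, Pdp1, Pdha1, Pdhb, Mpc1 and Mpc2 and the lowest for Pdk2 and Pdp2. The removed terms bear on this by construction: of the 3.0 residual degrees of freedom that each group has after litter and genotype, the deposited values kept 1.17 in the knockouts and 1.83 in the controls. The SDs given here are therefore too small in both groups, and more so in the knockouts. Among the controls, controls 5 and 6 kept the most (0.595 and 0.480), then control 4 (0.433). Controls 1 and 3 kept 0.170 and 0.151. The adjustment thus bears on the place of controls 5 and 6 at the ends too.

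Few neighbouring genes of the pathway passed the test. Of 10 tested partners of the complex and its cofactor supply (11 listed), none passed in either fit, and 3 differences were above 0 and 7 below. The smallest p among those reported was that of Pdpr, which encodes the regulatory subunit of the PDP1 phosphatase, at a log2 difference of 0.26 (adjusted p = 0.32, and 0.0652 without the removed terms). Dlat, Dld and Pdhx, which encode the E2 and E3 enzymes and the E3-binding protein, differed by -0.037, -0.022 and -0.059. Of 17 tested genes that make or use pyruvate (18 listed), none passed with the removed terms counted. The alanine aminotransferase gene Gpt, at -0.17, passed without them alone (adjusted p = 0.0367). Pkm and Ldha, the muscle pyruvate kinase and lactate dehydrogenase genes, differed by -0.00093 and 0.0020. None of 5 genes of the kindred branched-chain ketoacid dehydrogenase passed in either fit, and the smallest p were those of its E2 gene Dbt (-0.10) and its E1 beta gene Bckdhb (0.092).

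Genes known to regulate PDK transcription, insulin receptor substrates included, lay mostly above 0. The list mixes factors of fasting and fat use with genes of insulin signalling, which is known to lower the Pdk4 transcript. Its counts therefore have no single direction for the PDK genes. Of 17 tested, 15 differences were above 0 and 2 below, with a median of 0.16 against -0.0041 for all genes, of which 5936 of 12223 were above 0. With the removed terms counted 1 rose and none fell, namely Irs2 (log2 difference 1.30, adjusted p = 0.00665). Without them 6 of 17 passed above 0 and none below, against 629 above and 425 below of 12223 genes, adding Irs1 (0.62, adjusted p = 0.0193), the nuclear receptor genes Ppara (0.67, 0.0133), Ppard (0.22, 0.0034) and Rxra (0.12, 0.0197), and Klf15 (0.23, 0.0329). Foxo1, the factor most tied to Pdk4 in fasting, was at -0.20 and passed in neither fit (adjusted p = 0.451 and 0.11). Ppargc1a, of the same list, was at 0.81 and also passed in neither fit (adjusted p = 0.212 and 0.0523).

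Of 14 tested genes known to rise with Pdk4 in fasted muscle (15 listed), 1 rose with the removed terms counted and none fell, and 7 differences were on each side of 0. The gene that rose was Fbxo32, which encodes the atrophy ubiquitin ligase atrogin-1 (0.44, adjusted p = 0.0129). The fit without the removed terms added the lipoprotein lipase gene Lpl above (0.28, adjusted p = 0.0016) and the carnitine-acylcarnitine carrier gene Slc25a20 below (-0.20, adjusted p = 0.025). Ucp3 and Cpt1b, mitochondrial genes of fat use, differed by 0.060 and 0.042.

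**Figure D5:**
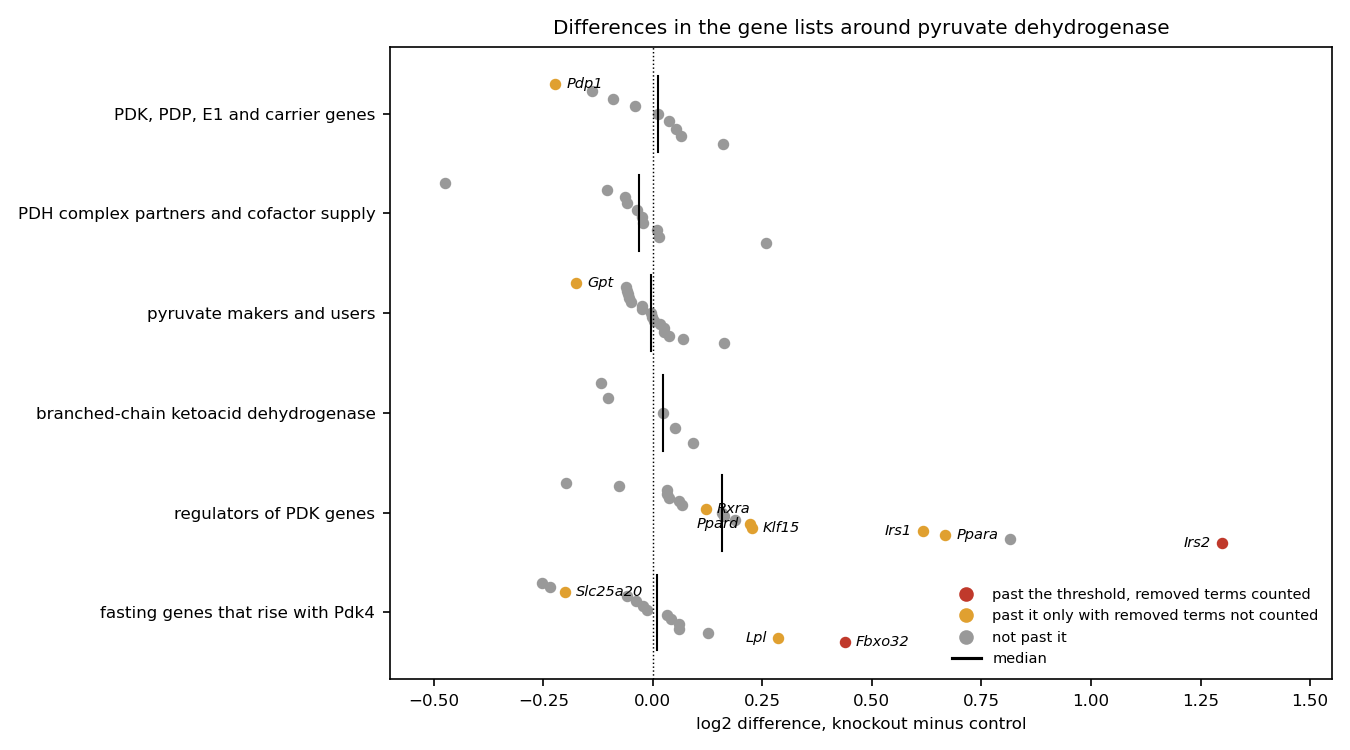
Log2 differences (knockout minus control) of the tested genes in each list, a point per gene and the median as a line; red genes passed with the removed terms counted, orange ones only without them. Irs2 (1.30) and Fbxo32 (0.44) are the red points, and the kinase, phosphatase, E1 and carrier genes lie between -0.22 and 0.16.

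Other cell types were followed by their markers. The 7 adipocyte markers summed to between 69.1 and 79.5 CPM in the knockouts and between 80.0 and 96.8 CPM in the controls, with all 6 tested markers below 0. None passed with the removed terms counted, and 4 passed below 0 without them. Fabp4, which endothelium also makes, was most of that sum at a mean of 63.6 CPM. Fibroblast markers summed to 439 to 486 CPM in the knockouts and 455 to 521 CPM in the controls, macrophage markers to 24.5 to 26.5 and 25.5 to 28.8 CPM, and tendon markers to 78.3 to 103 and 80.7 to 133 CPM. These ranges overlapped, while 4 of 5 fibroblast, 5 of 5 macrophage, 3 of 3 tendon and 2 of 2 Schwann cell markers tested were below 0. The summed myofibre markers averaged 86208 CPM in the knockouts and 80579 CPM in the controls, also overlapping. The 5 slow-fibre markers overlapped between the groups, at 32.9 to 41.1 and 29.3 to 43.1 CPM, as did the 5 endothelial markers at 215 to 221 and 208 to 223 CPM. No tested gene of the lists for fibroblasts, macrophages, Schwann cells, tendon, endothelium, slow and fast fibres and myofibres passed in either fit. Only 3 of 4 tendon and 2 of 4 Schwann cell markers were tested. The tendon marker Mkx, below the expression minimum, was lower in every knockout than in every control (-0.75; adjusted p = 0.417, and 0.0241 without the removed terms, in the fits without the minimum). Pdp1 and Mpc2 had lower measured values in the knockouts but are not counted as changed, and the part of these cell types in those values was not tested.

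The genes whose pattern over the 10 libraries was most like that of Pdk4 were Mad1l1, Lrrc74b and Ctsh, with Pearson r of 0.9966, 0.9925 and 0.9925. Those most like Pdp1 were Hnrnpk, Adh5 and Glmn, with r of 0.9949, 0.9948 and 0.9945. Their own log2 differences were -0.17, -0.092 and -0.27, and r takes in the difference between the groups. The likeness to Pdp1 is thus not separate from that difference. All these r are descriptions over 10 libraries whose values keep only 3 residual dimensions, so that high values are common. Of 10420 genes compared, 122 had an r of at least 0.9 with Pdk4 and 325 with Pdp1.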

How the data were processed

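Polyadenylated RNA of tibialis anterior was extracted with TRIzol and sequenced from stranded oligo-dT libraries, per the labels' protocols. The submitters' processing notes name fastp, kallisto and limma. Not given in the sources used here: versions, genome build, annotation, use of strand. What the authors deposited is adjusted log2 CPM, and these values sum as CPM to between 960166 and 1016398 per library. Counts were not used here, and with the depth unknown there are no counting intervals.

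The adjustment was read from the deposited values: with genotype in the fit, no litter term exceeded 6.65e-14 in any gene, and residuals spanned 3 of 6 dimensions. The empty directions entered the fit with litter and genotype, leaving 3 residual degrees of freedom; terms that overlapped genotype cannot be recovered, so standard errors are lower bounds. Tests across all genes used limma 3.58.1 in R 4.3.3 (eBayes with trend), two-sided, with Benjamini-Hochberg adjustment and a threshold of 0.05; no pseudocount was added. The design text states 4 mice per group, but neither it nor the labels say that each of the 5 libraries per group is a separate animal. If some are not, p-values cover only the spread among the deposited samples, which may be technical.

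Positions and transcript lengths came from GENCODE M21 (GRCm38), matched by Ensembl identifier for 99.1% of tested genes; promoters came from RefSeq (GRCm38.p6). Named genes were the members, then in each list those past the threshold in either fit or else the smallest 2 p-values, and the genes most like Pdk4 and Pdp1. Dlat, Dld, Pdhx, Pkm, Ldha, Foxo1, Ppargc1a, Ucp3, Cpt1b, Map3k15 and the markers fall outside this rule and were named after their values were seen. A gene that the rule names is not reported here. Both fits were run on simulated data. There the fit that counts the removed terms kept false calls near the threshold, while in the fit without them most simulated calls were false. That share depends on how many genes a simulation makes differ. The terms that the authors removed are unknown and may overlap genotype. The simulation therefore cannot show how either fit behaves on the deposited values, and the share of false calls there was not tested. Members, lists and the choice of fit were made with earlier results of these data known.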

Additional observations from a re-analysis of the deposited data

Results flagged for a closer look

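Of 20 sets of 5 libraries (10 genes in 2 groups), 1 held a library apart from the rest by Dixon's criterion at the 95% level (0.71 for 5 libraries). It was Pdk1 in control 5, at 6.20 log2 CPM where the other controls lay between 5.98 and 6.03. For independent values of equal spread chance gives such a library in about 1 of 20 sets. The adjustment left control 5 0.595 residual degrees of freedom and control 3 0.151, so that rate does not hold here.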

How the results depend on the processing

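The number of genes past the threshold, 41 with the removed terms counted, was 1054 without them, 2608 with genotype alone, 24 after quantile normalization, 1 without a trend in eBayes, 748 relative to the length trend without the removed terms, and between 1 (without control 6) and 1709 (without control 5) when a library was left out: 1 to 54 with the removed terms counted and 101 to 1709 without. The members past the threshold, 0, became 1 without the removed terms (Pdp1), 3 with genotype alone (Pdp1, Pdp2 and Mpc2), 1 relative to the length trend without the removed terms, and 0 to 3 with a library left out. The difference changed sign when a library was left out, with the removed terms counted, for Pdk1 (-0.029 to 0.12) and Pdk2 (-0.0055 to 0.095). So it did for Pdk4 (-0.32 to 0.22), Pdha1 (-0.021 to 0.12) and Mpc1 (-0.067 to 0.0047). Pdp1 (-0.27 to -0.18), Pdp2 (0.086 to 0.25), Pdhb (-0.16 to -0.032) and Mpc2 (-0.25 to -0.10) kept their sign in these fits. The removed terms are refitted there on the remaining libraries, which itself moves the difference. In the fit without the removed terms, leaving out a library changed the sign only for Pdk4 (-0.059 to 0.10) and Pdha1 (-0.0067 to 0.082). Median scaling moved the median difference of all genes from -0.0041 to -0.0084. The leave-out and length fits without the removed terms were chosen after seeing the data. Replicate numbers 1, 3, 4 and 5 occur in both groups, but deviations of same-numbered libraries correlated between -0.85 and 0.45. Litters pair 3 of these 4 numbers (not number 4), but as not every correlation was above 0.1 the numbers were not taken as pairs, and litter itself is in the fit. Litter and 3 further terms had already been removed from the values, so these correlations cannot settle whether the numbers were pairs. With these numbers as a replicate block, on 8 libraries and without the removed terms, 127 genes and none of the members passed (Pdp1 -0.23, adjusted p = 0.0527). Unknown depth limits what can be said of Pdk3.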
